A study of Mus musculus with 14 samples.

Results

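The circadian clock genes measured here are 10 genes of the mammalian clock loop: Nr1d1, Nr1d2, Dbp, Per1, Per2, Per3, Cry1, Cry2, Arntl (also named Bmal1) and Bhlhe40. A probe set was counted as a member when the platform annotation gave it 1 of these genes and no other, which found 20 probe sets for all 10 genes, among 45037 probe sets and 18193 genes on the arrays. Dishes 35 mm wide held the mouse mammary epithelial line SCp2, plated at densities labelled 25K, 50K, 100K or 250K and kept in DMEM with 2% FCS for 3 days, with MMP3 or as controls. MMP3 (stromelysin-1) is a matrix metalloproteinase, an enzyme that cells release and that digests proteins of the extracellular matrix. Total RNA from a dish went onto 1 Affymetrix Mouse 430 2.0 array, 14 in all: experiment B had an MMP3 and a control dish at each of the 4 densities, and experiment A at 50K, 100K and 250K. Each agent and density thus had 1 dish per experiment. The hour at which dishes were collected, and any step that sets the clocks of cultured cells together, are not stated in those sources that were used.

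The clock is a transcription loop in which ARNTL, paired with CLOCK, switches on the Per and Cry genes, and the PER and CRY proteins then hold that pair back. The same pair drives Nr1d1 and Nr1d2, which encode the nuclear receptors REV-ERB alpha and beta that repress Arntl, and Dbp, an output transcription factor that binds D-box elements. Bhlhe40 encodes DEC1, which competes for the same E-box elements and also responds to hypoxia and other signals. In cultured cells each cell keeps its own rhythm, and serum or glucocorticoid can align them. Where cells are aligned, the level in 1 dish depends on when it was collected.

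Expression is given on a log2 scale relative to the probe set's own median, which is 0 over the 14 arrays. The values show how 1 probe set differs between dishes and hold no level that could be set against another gene. The array titled Exp B MMP3 100K stood apart. Its SD over all probe sets was 0.869, against 0.232 to 0.412 on the other 13 arrays, and its 3′ probe set of beta-actin read -1.82, against -0.36 to 0.31. The 3′ minus 5′ difference of beta-actin, a measure of RNA integrity and labelling, was 0.654 there and -0.339 to 0.192 elsewhere. That of Gapdh was -0.02 there and -0.06 to 0.17 elsewhere. Among the other 13 arrays, A control 250K had the lowest 3′ beta-actin reading, at -0.364, and an SD of 0.396. B MMP3 25K came next, at -0.360 and 0.371. The 18S control probe set read -0.59 to 0.01 on the arrays of experiment B and 0.72 to 1.07 on those of experiment A. Ifit1, an interferon-induced gene, separated MMP3 from control dishes in experiment A and not in experiment B. It read 2.83, 3.96 and 4.21 in the MMP3 dishes of A at 50K, 100K and 250K, against -2.91, -2.98 and -2.94 in control dishes. In B it read -2.83, 4.53, -2.97 and 5.15 in the MMP3 dishes at 25K, 50K, 100K and 250K, against -2.93, 3.71, -2.93 and 4.26 in control dishes. An earlier account of these data found 4 arrays of B, MMP3 at 25K and 100K and control at 50K and 250K, to stand against their labels, so results are given with and without the 100K MMP3 array and, for fits to all arrays, without these 4. The part of these differences between arrays in the results below was not tested.

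Promoter windows of RefSeq on GRCm38.p6, 250 bases before to 50 after an annotated start, were matched in the table used here for 8 of the 10 genes (not Per2 and Bhlhe40), 10 windows in all. Shown are Per3, Dbp and Nr1d1, whose values differed most between dishes, Per1, which carries both an E-box and a D-box, and Arntl, the target of the REV-ERB repressors. ARNTL binds the E-box and DBP the D-box. Capitals mark matches, on either strand, to the E-box CACGTG, the D-boxes TTATGTAA and TTATGCAA, the REV-ERB and ROR element TAGGTCA and the cAMP element TGACGTCA; no matches overlapped.
Per3 promoter window, chr4:151044616-151044915, reverse strand: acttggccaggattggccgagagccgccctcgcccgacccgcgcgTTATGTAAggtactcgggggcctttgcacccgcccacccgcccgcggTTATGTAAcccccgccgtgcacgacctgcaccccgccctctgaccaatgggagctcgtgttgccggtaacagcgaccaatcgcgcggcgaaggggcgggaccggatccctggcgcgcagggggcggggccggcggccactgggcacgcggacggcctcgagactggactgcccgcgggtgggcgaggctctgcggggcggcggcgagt
Per1 promoter window, chr11:69098699-69098998, forward strand: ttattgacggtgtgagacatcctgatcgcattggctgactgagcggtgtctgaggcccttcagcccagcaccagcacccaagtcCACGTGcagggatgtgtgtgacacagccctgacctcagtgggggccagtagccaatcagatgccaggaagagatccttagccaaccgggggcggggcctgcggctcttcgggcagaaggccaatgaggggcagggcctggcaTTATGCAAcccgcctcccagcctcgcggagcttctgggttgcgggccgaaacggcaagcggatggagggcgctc
Arntl promoter window, chr7:113207261-113207560, forward strand: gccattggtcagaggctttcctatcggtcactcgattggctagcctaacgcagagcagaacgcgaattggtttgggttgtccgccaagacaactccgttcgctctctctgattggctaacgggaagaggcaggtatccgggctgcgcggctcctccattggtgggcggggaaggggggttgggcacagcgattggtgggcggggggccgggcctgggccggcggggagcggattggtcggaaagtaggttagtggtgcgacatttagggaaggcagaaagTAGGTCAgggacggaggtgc
Dbp promoter window, chr7:45704997-45705296, forward strand: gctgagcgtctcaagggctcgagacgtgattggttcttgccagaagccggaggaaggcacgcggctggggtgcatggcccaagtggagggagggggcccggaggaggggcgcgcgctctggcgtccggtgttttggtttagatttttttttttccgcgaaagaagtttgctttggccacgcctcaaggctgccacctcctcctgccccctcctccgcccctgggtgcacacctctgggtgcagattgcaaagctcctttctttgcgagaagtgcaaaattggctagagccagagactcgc
Nr1d1 promoter window, chr11:98775328-98775627, reverse strand: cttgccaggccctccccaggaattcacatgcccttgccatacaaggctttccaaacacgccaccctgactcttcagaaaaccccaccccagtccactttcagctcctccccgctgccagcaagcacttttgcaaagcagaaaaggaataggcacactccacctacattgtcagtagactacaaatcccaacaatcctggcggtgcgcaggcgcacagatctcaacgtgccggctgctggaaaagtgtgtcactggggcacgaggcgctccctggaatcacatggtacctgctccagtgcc

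The Per3 window held TTATGTAA at 2 places, with first bases at -205 and -158 from the start, and the Per1 window held CACGTG at -166 and TTATGCAA at -24. The second Arntl window held TAGGTCA at 31 bases after the start, and the Cry1 window, not shown, CACGTG at -60. No letters searched were found in the windows of Dbp, Nr1d1, Nr1d2 or Cry2, in the second window of Per1 or in the first of Arntl. Among all 32851 RefSeq mouse windows of this length, 7.15% held CACGTG, 0.938% TTATGTAA, 0.743% TTATGCAA, 2.61% TAGGTCA and 1.79% TGACGTCA. A match describes the letters and not a bound site. A window without a match can still hold other spellings of an element, and sites outside the windows were not searched.

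Dbp, the D-box output factor, differed most between dishes of the members, with an SD over the 14 arrays of 2.20 for 1418174_at and 2.09 for 1438211_s_at. In experiment B, 1418174_at read 2.43, -0.63, 5.08 and 1.13 in MMP3 dishes at 25K, 50K, 100K and 250K, against -0.84, -3.12, 0.35 and -1.93 in control dishes. In experiment A it read -1.39, -1.38 and 0.48 in MMP3 dishes at 50K, 100K and 250K, against -0.35, 0.98 and 3.34 in control dishes. So at each density the MMP3 dish read above its control in B, in 4 of 4 pairs, and below it in A, in 3 of 3, while the groups as wholes overlapped in both. The order over densities in B was the same in both agents: 100K highest, then 25K, 250K and 50K. The 25K and 100K dishes are those with low Ifit1 in that experiment, and the 50K and 250K dishes those with high Ifit1. The second probe set gave the same picture, at 2.31, -0.91, 4.29 and 0.69 in MMP3 dishes of B, against -1.15, -2.86, 0.47 and -2.45 in control dishes. In A it read -1.87, -1.73 and 0.32 in MMP3 dishes, against -0.32, 0.50 and 3.02 in control dishes. The 3′ minus 5′ difference of beta-actin lay on the same side of control as Dbp in every pair. In B it was 0.18, -0.12, 0.65 and 0.19 in MMP3 dishes, against -0.04, -0.34, 0.08 and -0.13 in control dishes. In A it was -0.14, -0.08 and 0.09, against 0.03, -0.05 and 0.11. That of Gapdh did not follow: in A it was higher in the MMP3 dish at each density. Whether Dbp varied with RNA integrity was not tested.

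Dbp also read higher at 250K than at 50K in every series of dishes. For 1418174_at the difference was 1.75 in MMP3 dishes and 1.20 in control dishes of B, and 1.87 in MMP3 dishes and 3.70 in control dishes of A, the last a 13-fold difference. The other probe set gave 1.60, 0.41, 2.19 and 3.34 in the same order. The 100K dishes of B lay above both of these densities, in either agent, whereas in A the 100K dishes lay between them or level with 50K. In a dish of cells, fewer cells that express a gene and less RNA per cell cannot be told apart.

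**Figure D1:**
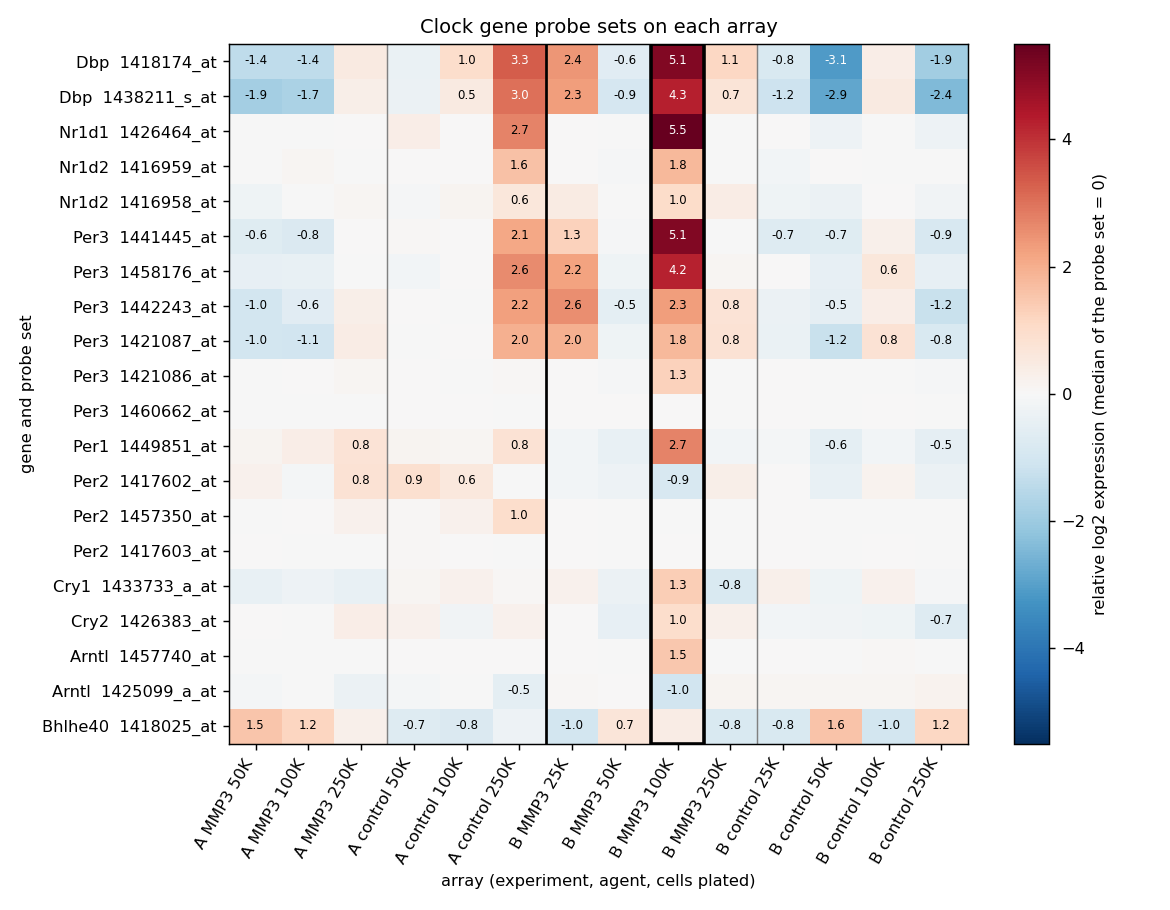
Log2 expression relative to the probe set's median (colour) of the 20 clock gene probe sets (rows) on the 14 arrays (columns, by experiment, agent and cells plated), with values beyond 0.5 from 0 printed and the array B MMP3 100K boxed. Dbp, Nr1d1 and Per3 1441445_at read highest on that array and next highest on A control 250K.

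Per3, a period gene whose protein joins the PER and CRY complex, had 6 probe sets, of which 4 varied together. Its most variable, 1441445_at, read 1.27, -0.06, 5.09 and close to 0 in MMP3 dishes of B, against -0.72, -0.66, 0.26 and -0.90 in control dishes. In A it read -0.65, -0.81 and 0.04 in MMP3 dishes, against 0.07, close to 0 and 2.12 in control dishes. As for Dbp, the MMP3 dish lay above its control in 4 of 4 pairs of B and below it in 3 of 3 pairs of A. Probe set 1421087_at, which depends less on the 100K MMP3 dish, read 1.95, -0.24, 1.77 and 0.80 in MMP3 dishes of B, against -0.35, -1.21, 0.78 and -0.82 in control dishes. Its values in A were -1.02, -1.06 and 0.40 in MMP3 dishes, against -0.02, 0.02 and 1.95 in control dishes. For 1458176_at the differences of the pairs were 2.21, 0.21, 3.60 and 0.55 in B and -0.30, -0.44 and -2.62 in A. For 1442243_at they were 2.89, -0.03, 1.93 and 1.98 in B and -1.02, -0.62 and -1.93 in A, so that 1 pair of B did not follow. The remaining probe sets were nearly flat: 1421086_at read 1.28 on the 100K MMP3 array of B and at most 0.09 elsewhere, and 1460662_at stayed within 0.05 of 0 on all 14 arrays.

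Per1, the period gene that serum and other signals induce quickly, had 1 probe set, 1449851_at. In B it read -0.16, -0.43, 2.73 and -0.16 in MMP3 dishes at 25K, 50K, 100K and 250K, against -0.11, -0.55, -0.17 and -0.50 in control dishes. In A the readings were 0.15, 0.34 and 0.76 in MMP3 dishes, against 0.14, 0.11 and 0.81 in control dishes. MMP3 and control dishes thus differed by at most 0.34 at each density, except at 100K in B, and in A the 250K dishes of both agents were the highest.

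The protein of Per2 is also part of the repressor complex. Its most variable probe set, 1417602_at, read -0.16, -0.29, -0.88 and 0.30 in MMP3 dishes of B, against 0.01, -0.39, 0.21 and -0.32 in control dishes. The values in A were 0.25, -0.12 and 0.79 in MMP3 dishes, against 0.89, 0.60 and -0.01 in control dishes. It was lowest on the 100K MMP3 array of B, where Per1 and Per3 1441445_at were highest, and the agents overlapped in both experiments. Its probe sets differed: 1457350_at was at most 0.25 from 0 except on A control 250K, where it read 0.97, and 1417603_at lay within 0.05 of 0 on all 14 arrays.

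Nr1d1 encodes REV-ERB alpha, the repressor of Arntl. Its probe set 1426464_at read 5.47 on the 100K MMP3 array of B, and the other MMP3 dishes of B lay within 0.05 of 0, against 0.00, -0.27, -0.03 and -0.26 in control dishes. In A all 3 MMP3 dishes lay within 0.05 of 0, against 0.38, 0.01 and 2.72 in control dishes at 50K, 100K and 250K. Large values thus came from 1 dish in each experiment, and in the other dishes a signal near background cannot be told from an unchanged one in a centred table. Nr1d2, which encodes REV-ERB beta, had high values on the same dishes: 1416959_at read 1.78 on B MMP3 100K and 1.59 on A control 250K and lay between -0.15 and 0.10 on the other 12. Its second probe set, 1416958_at, varied more evenly, at 0.44, -0.01, 1.003 and 0.42 in MMP3 dishes of B, against -0.26, -0.32, 0.01 and -0.19 in control dishes. In A it read -0.23, -0.02 and 0.12 in MMP3 dishes, against -0.08, 0.16 and 0.60 in control dishes. This probe set repeated the order of Dbp, with MMP3 above control in 4 of 4 pairs of B and below it in 3 of 3 pairs of A, at smaller differences.

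**Figure D2:**
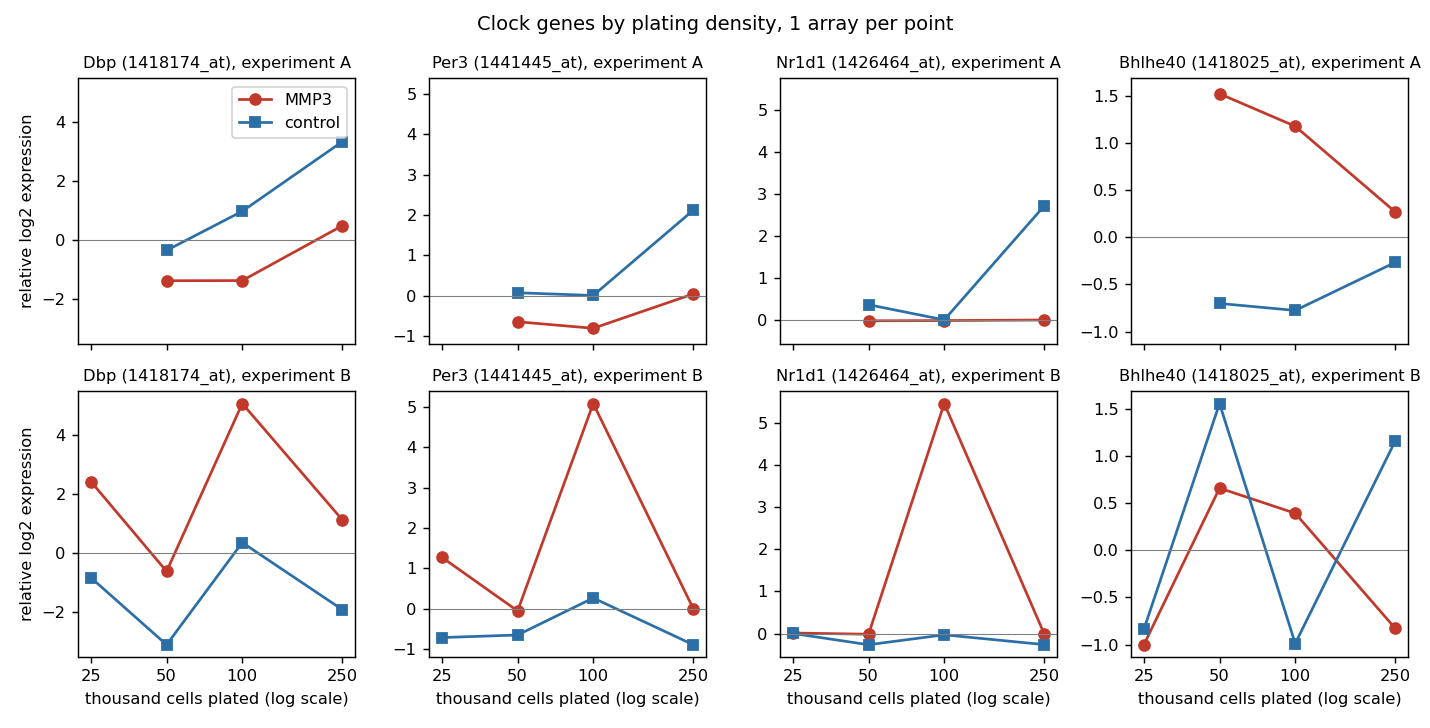
Relative log2 expression against the number of cells plated, in units of K (log axis) for Dbp, Per3, Nr1d1 and Bhlhe40, experiment A above and B below, MMP3 as circles and control as squares, 1 array per point. MMP3 runs below control for Dbp in A and above it in B, and Nr1d1 leaves 0 mainly at A control 250K and B MMP3 100K.

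The cryptochromes, partners of the PER proteins in repression, differed less. Cry1 (1433733_a_at) read 0.25, -0.31, 1.33 and -0.84 in MMP3 dishes of B, against 0.27, -0.25, 0.25 and -0.04 in control dishes. In A its MMP3 dishes read -0.41, -0.27 and -0.42, against 0.12, 0.26 and 0.04 in control dishes. The groups did not overlap in A, with MMP3 lower by 0.53, 0.53 and 0.46 at the 3 densities, and overlapped in B. Cry2 (1426383_at) read 0.03, -0.47, 0.99 and 0.28 in MMP3 dishes of B, against -0.14, -0.19, -0.24 and -0.72 in control dishes. In A it read 0.02, -0.02 and 0.35 in MMP3 dishes, against 0.26, -0.17 and 0.24 in control dishes, and the agents overlapped in both experiments.

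Arntl, the activator of the loop, had 2 probe sets that disagreed. On the 100K MMP3 array of B, 1457740_at read 1.46 and was the highest of the 14, whereas 1425099_a_at read -1.05 and was the lowest. Elsewhere 1457740_at lay between -0.03 and 0.05, too flat to order the dishes. Probe set 1425099_a_at read 0.07, 0.00, -1.05 and 0.15 in MMP3 dishes of B, against 0.13, 0.09, 0.10 and 0.21 in control dishes. In A it read -0.09, close to 0 and -0.30 in MMP3 dishes, against -0.11, -0.04 and -0.54 in control dishes. Its 2 lowest readings were thus on the dishes where Nr1d1 was highest, B MMP3 100K and A control 250K. The 2 probe sets had r = -0.81 (Pearson) over the 14 arrays and 0.02 without B MMP3 100K. No direction is given for Arntl, since they oppose each other on that array and 1457740_at is flat on the others.

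Bhlhe40 (1418025_at), the E-box competitor, had a pattern of its own. In B it read -1.002, 0.66, 0.39 and -0.83 in MMP3 dishes, against -0.84, 1.55, -0.99 and 1.16 in control dishes. In A it read 1.52, 1.17 and 0.27 in MMP3 dishes at 50K, 100K and 250K, against -0.70, -0.78 and -0.27 in control dishes. The groups did not overlap in A, and the MMP3 dish lay above its control by 2.22, 1.95 and 0.53. In B the MMP3 dish lay above control only at 100K, by 1.38, and below it at the other 3 densities, by up to 1.99. Both control dishes of B with high Bhlhe40 are also dishes with high Ifit1, but the 250K MMP3 dish of B, with Ifit1 at 5.15, read low for Bhlhe40.

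The question of each comparison was whether expression differed with MMP3 or with the number of cells plated. Each was fitted with limma over all 45037 probe sets, and a probe set was called at a Benjamini-Hochberg adjusted p under 0.05. The genes were chosen by name with earlier results of these same arrays known, and which measured values led to the choice is not recorded, so all estimates below describe the members and support nothing by themselves. With both experiments together, 0 of 20 member probe sets were called for MMP3, against 0.619% of all probe sets, and 0 of 20 also had an unadjusted p under 0.05, against 10.1% of all. The estimate for Dbp was 1.04 ± 1.26 (SE, 14 arrays), the mean of effects with opposite signs in the 2 experiments. It was 0.29 without the 100K MMP3 array of B and 0.21 without the 250K control array of B. The member median was 0.28, against 0.00 over all probe sets, and without the 100K MMP3 array both were within 0.05 of 0. Without that array 0 of 20 were called, against 2.89% of all.

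Without the 4 arrays of B that stand against their labels, 10 arrays were left, 6 of them from A. Then 6 of 20 member probe sets, of 4 genes, were called for MMP3, a smaller share than the 57.3% of all probe sets. MMP3 dishes were lower for both probe sets of Dbp, at -1.5 ± 0.42 (SE) for 1418174_at with an adjusted p of 0.0346 by limma, for 2 probe sets of Per3, and for Cry1 at -0.59 ± 0.10. They were higher for Bhlhe40, at 1.47 ± 0.19 with an adjusted p of 0.00622 by limma. For density, 1 member probe set was called without them, Dbp (1438211_s_at), against 2.24% of all. The arrays left out were named from these same data, so these values describe the remaining arrays.

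Within experiment B, 0 of 20 member probe sets were called for MMP3, against 0% of all by limma, and 1 of 20 had an unadjusted p under 0.05, against 7.17% of all. The estimate for Dbp was 3.39 ± 1.58 (SE, 8 arrays), and 2.33 ± 1.30 without the 100K MMP3 array. For Per3 (1441445_at) it was 2.08 ± 1.38, and 0.86 ± 0.46 without that array. For Nr1d1 it was 1.503 ± 1.502, and 0.13 ± 0.09 without that array. Nr1d2 (1416958_at), the probe set with the low p, gave 0.65 ± 0.24 and 0.48 ± 0.16 without that array. Bhlhe40 gave -0.42 ± 0.83, less than its error. In B no member probe set had groups that did not overlap, against 2.68% of all with MMP3 higher and 2.9% with MMP3 lower.

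Within experiment A, 0 of 20 were called for MMP3, against 4.11% of all probe sets (2.41% higher and 1.71% lower). At an unadjusted p under 0.05 there were 6 of 20, of 5 genes, against 23% of all, so the members' share was near that of the array. Bhlhe40 came nearest to a call, at 1.57 ± 0.13 (SE, 6 arrays) with an adjusted p of 0.0502 by limma. Dbp was at -2.08 ± 0.34 with an adjusted p of 0.102, Cry1 at -0.51 ± 0.09 with 0.112, and Nr1d2 (1416958_at) at -0.27 ± 0.03 with 0.0688, all by limma. The 4 variable Per3 probe sets gave -1.12 to -1.21, each with an adjusted p of 0.241 by limma. The Nr1d1 estimate of -1.04 ± 0.56 rested on 1 dish and was 0.03 without control 250K. In A the groups did not overlap with MMP3 higher for 1 probe set, Bhlhe40, against 10% of all, and with MMP3 lower for 4, against 43.5% of all. Of those 4, the probe sets of Per3 (1460662_at) and Arntl (1457740_at) lay within 0.05 of 0 on every array of A.

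For plating density, the slope per doubling of cells gave 0 of 20 member probe sets called in experiments A and B together, against 0% of all by limma, and 0 of 20 at an unadjusted p under 0.05, against 7.2% of all. The fit to B alone gave 0 of 20, against 0% of all, with 0 of 20 at an unadjusted p under 0.05, against 3.12%. The fit to A alone gave 0 of 20, against 0% of all, with 7 of 20 at an unadjusted p under 0.05, of 5 genes, against 15.7% of all. Those slopes in A were 1.22 ± 0.18 (SE) per doubling for Dbp, 0.22 ± 0.02 for Nr1d2 (1416958_at), 0.28 ± 0.07 for Per1, and 0.79 ± 0.21 and 0.76 ± 0.22 for the Per3 probe sets 1442243_at and 1421087_at. Per2 (1457350_at) gave 0.26 ± 0.05, with 1 high dish. All were positive and none was called, with adjusted p from 0.156 to 0.313 by limma. In B the Dbp slope was 0.05 ± 0.64. The control dish of A at 250K lay at least 2-fold above that at 50K for 8 of 20 member probe sets, of Dbp, Nr1d1, Nr1d2 and Per3, against 3.03% of all probe sets. The latter include many flat probe sets, whereas 18 of 20 members were at or above the 40th percentile of SD. Probe sets of the same gene are counted separately, so the count describes these dishes only. The difference in slope between MMP3 and control dishes gave 0 of 20 called, against 0% of all by limma, with 0 of 20 at an unadjusted p under 0.05, against 1.83%.

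Whether MMP3 acted differently in the 2 experiments was fitted on the 12 arrays at shared densities. In this fit 0 of 20 member probe sets were called, against 0% of all by limma, and 2 of 20, of Dbp and Nr1d2, had an unadjusted p under 0.05, against 6.28% of all. The MMP3 effect in B minus that in A was 5.51 ± 2.20 (SE) for Dbp with an adjusted p of 0.690 by limma, and 3.86 ± 1.47 without the 100K MMP3 array, where 0 of 20 were called, against 0.00666% of all. For Bhlhe40 it was -2.07 ± 0.89, and -2.20 ± 1.01 without that array. By signs alone, 8 of 20 member probe sets of 5 genes (Dbp, Nr1d1, Nr1d2, Per3 and Arntl) had MMP3 above control in 4 of 4 pairs of B and below it in 3 of 3 pairs of A, against 4.66% of all probe sets. Among probe sets at or above the 40th percentile of SD, that share was 7.21%. The 8 include an Arntl probe set, 1457740_at, with differences of hundredths or less except for 1.41 in the 100K pair of B. In 1 further probe set, Arntl 1425099_a_at, the signs were opposite throughout, against 3.46% of all. No member had MMP3 higher or lower in all 7 pairs, against 2.18% and 2.38% of all.

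**Figure D3:**
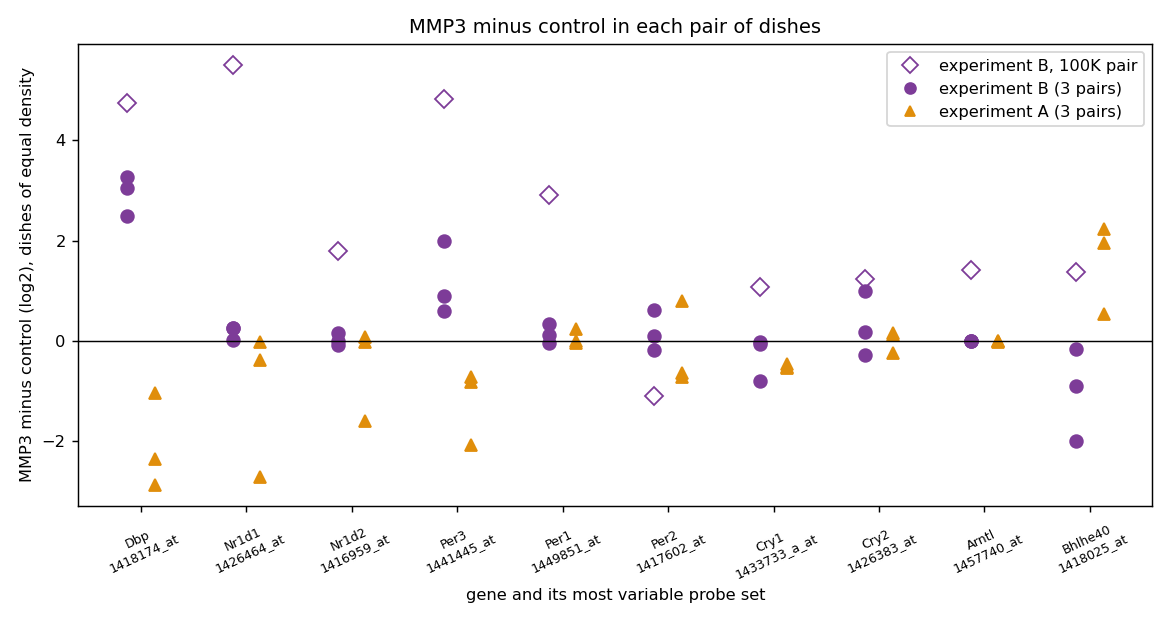
MMP3 minus control (log2) for each pair of dishes of equal density, for the most variable probe set of each gene, with experiment B at the left (the 100K pair open) and A at the right. For Dbp and Per3 all 4 pairs of B lie above 0 and all 3 of A below it, while for Nr1d1, Nr1d2, Per1 and Arntl the B pairs other than 100K lie near 0.

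On the array B MMP3 100K, 13 of 20 member probe sets, of 8 genes, had their highest value, against 47.5% of all probe sets, on the array with the widest spread of values. It lay at least 2-fold above each of the other 13 arrays for 9 of 20, of Dbp, Nr1d1, Per1, Per3, Cry1 and Arntl, against 3.36% of all. That share includes many flat probe sets, whereas 18 of 20 members were at or above the 40th percentile of SD. Probe sets of the same gene are counted separately. The genes and this array were picked with these data known, so the count supports nothing by itself. The gap to the next array was 2.97 for Per3 (1441445_at), 2.74 for Nr1d1, 1.92 for Per1, 1.74 for Dbp, 1.06 for Cry1 and 0.19 for Nr1d2 (1416959_at). The next array was control 250K of A for Dbp, Nr1d1, Nr1d2, Per1 and Per3 (1441445_at). Bhlhe40 was unremarkable on this array, at 0.39, and Per2 was at its lowest.

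Across the 14 arrays, Dbp and Per3 (1441445_at) correlated with Pearson's r = 0.90, also without the 100K MMP3 array, and the 2 Dbp probe sets with r = 0.99. Nr1d1 and Nr1d2 correlated with r = 0.95, on 2 dishes that stand far from the rest. Dbp and Nr1d1 had r = 0.79, and 0.64 without that array. Bhlhe40 ran against Dbp, at r = -0.50 and -0.71 without that array, and Per2 had r = -0.16 with Dbp, and 0.29 without that array. These describe arrays that share experiment, agent and density, and carry no p-value.

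**Figure D4:**
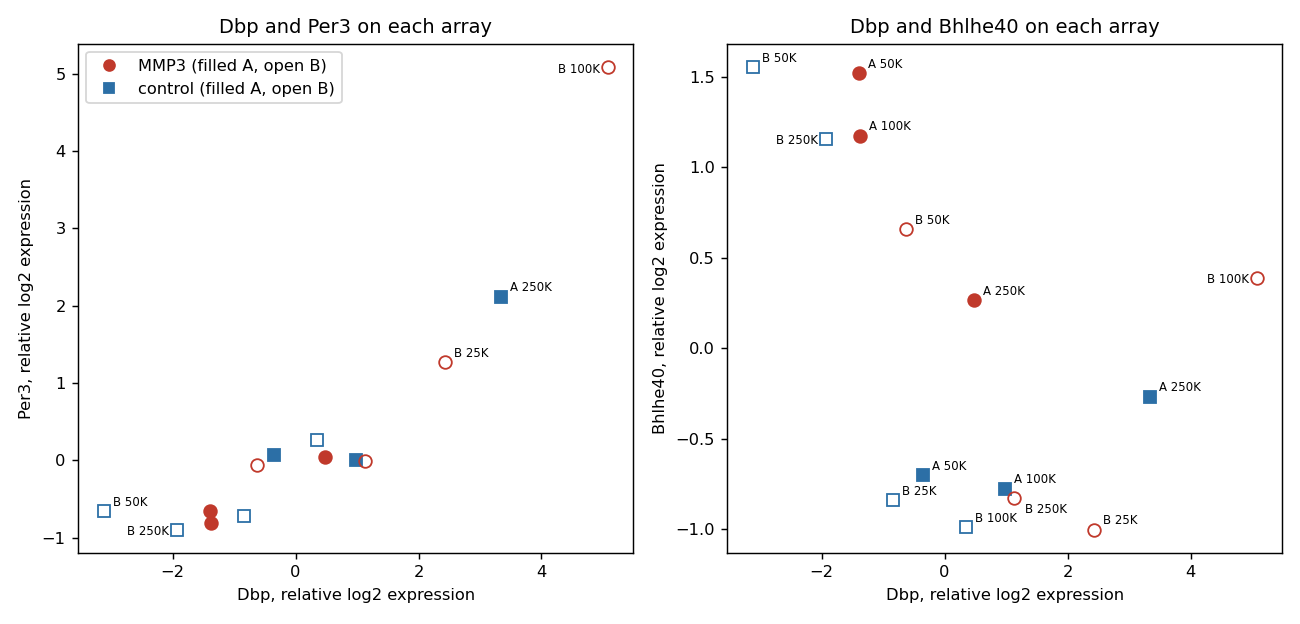
Relative log2 expression of Per3 (left) and Bhlhe40 (right) against Dbp on each of the 14 arrays, MMP3 as circles and control as squares, filled for experiment A and open for B, labelled by experiment and density (left panel: outer points only). Per3 climbs with Dbp up to B MMP3 100K at the top right, and the 4 highest Bhlhe40 values lie where Dbp reads -1.38 or lower.

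By the same measure, over 16306 other genes each by its most variable probe set, the pattern of Dbp was nearest to those of Tet2, S100a14, Coq3, Hp1bp3 and Hcfc2. Tet2, which encodes an enzyme that oxidises methylated cytosine, had r = 0.987, and 0.980 without the 100K MMP3 array. In all 243 genes had r of at least 0.9 with Dbp, and 203 without that array. Nr1d1 was nearest to Serac1 (r = 0.992), Kif1b, Plekhm1, Hoxb5os and Cdkal1, with 279 genes at 0.9 or more, and 109 without that array. Arntl (1457740_at) was nearest to Arhgef7, Arfgap3, Ipmk, Trmu and Abhd18, with 613 genes at 0.9 or more, and 49 without that array. Per2 had no gene at 0.9, and Eva1a came nearest with r = 0.848, before Plb1, Synpo, Usp49 and Dennd1a.

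Of 21 other clock genes, among them Clock, Npas2, the Ror genes, Tef, Hlf and Nfil3, 18 had a probe set. Csnk1e, which encodes a kinase that marks PER proteins for decay, was the 1 called, or 1 of 18 against 4.11% of all probe sets in that comparison: it rose with MMP3 in A by 0.95 ± 0.06 (SE) with an adjusted p of 0.0388 by limma. It read 0.64, 0.51 and 0.01 in MMP3 dishes of A, against -0.72, -0.56 and -0.41 in control dishes, which do not overlap. Without any 1 of the 6 arrays of A its estimate was 0.90 to 1.06 and the call was lost, with 0 probe sets of the whole table called in those fits. In B it was at 0.25 ± 0.42. The list's median MMP3 effect was 0.04 in B and -0.01 in A, against 0.00 and -0.02 over all probe sets. Single genes lay far from that median in A without being called. Hlf was at -2.40 ± 0.21 with an adjusted p of 0.0527 by limma. Tef was at -1.06 ± 0.26 and Ciart at -0.94 ± 0.20, whereas Gsk3b was at 0.90 ± 0.10. In B these 4 were at -0.16 ± 0.96, 0.96 ± 0.51, 0.27 ± 0.66 and -0.29 ± 0.77 in the same order. Of 10 genes under clock or D-box control, such as Wee1, Nampt and Usp2, 9 had a probe set and 0 were called in any of the 8 comparisons. Only the MMP3 fits to all arrays (0.619%) and to A (4.11%) called any probe set, so elsewhere a count of 0 was fixed.

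Among signals that set clocks in culture, 7 of 7 glucocorticoid targets had a probe set. Fkbp5, which encodes a chaperone of the glucocorticoid receptor, fell by 0.65 ± 0.10 (SE) with MMP3 over both experiments, with an adjusted p of 0.0389 by limma, where 0.619% of all probe sets were called, and the other 6 were not called in any comparison. Fkbp5 was at -0.54 ± 0.11 in A alone and -0.74 ± 0.12 in B alone and was called in neither, where 4.11% and 0% of all were called. Its value without the 4 arrays of B that stand against their labels is not given here. Over both experiments its estimate was -0.72 to -0.61 when any 1 array was left out. Of those 14 fits 4 kept the call, that without B MMP3 100K among them. The other 10 called 0 of all probe sets, so the lost calls say nothing about Fkbp5. It read -0.08, -0.02, -0.80 and -1.19 in MMP3 dishes of B, against 0.31, 0.23, 0.30 and 0.04 in control dishes. In A, MMP3 dishes at 50K and 100K were close to 0 and that at 250K read -0.58, against 0.61, 0.43 and 0.00 in control dishes. Of 9 immediate early genes, such as Fos and Egr1, 0 were called in any comparison. Among the comparisons, only the MMP3 fits to all arrays (0.619%) and to A (4.11%) called any probe set. Some of these genes still differed between dishes. On A control 250K, Egr2, Egr1 and Fos read 3.50, 3.22 and 2.99, and Crem and Atf3 read -0.42 and -0.52. Fos also read 3.72 on A control 50K. On B MMP3 100K, Egr2, Egr1 and Fos read 0.11, -2.52 and 1.61. Whether these readings relate to the clock genes was not tested.

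Markers of the cells were read beside these results. Of 6 epithelial markers, MMP3 dishes of A were higher for Epcam (1.18 ± 0.02, SE) and Cdh1 (0.89 ± 0.04) and lower for Krt5 (-1.03 ± 0.03). All were called by limma in the fit to all 6 arrays, where 4.11% of all probe sets were called. The fits without 1 of these arrays called 0 of all probe sets, so losing the calls there says nothing about the markers. In B 0 were called, against 0% of all. Of the macrophage, fibroblast, endothelial and adipocyte markers, 20 of 21 had a probe set and 0 were called in any comparison. Only the MMP3 fits to all arrays (0.619%) and to A (4.11%) called any probe set. Since the table holds no levels, whether a marker is present at all cannot be read from it.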

How the data were processed

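RNA of 14 dishes was measured on Affymetrix Mouse 430 2.0 arrays from 200 ng of total RNA each, per the labels' protocols. The deposited table holds log2 values from RMA, a step of the authors per the submitters' processing notes, with no version given; the log base is not stated and log2 is what RMA gives. Each probe set's median over the 14 arrays was 0 within 5e-07, a centring seen in the values and not described in the sources used here. Of 45101 probe sets, 64 Affymetrix controls were left out of the tests. Of the other 45037, 34945 had 1 gene symbol in the platform annotation, 932 had several and 9160 were unnamed here. Precision is limited by how few arrays there are, and signal over background is unknown: 49.4% of probe sets lay within 0.05 of 0 on at least 10 arrays.

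Agent, density and experiment came from the labels. Models were fitted with lmFit and eBayes of limma 3.58.1 (R 4.3.3) to all 45037 probe sets, with Benjamini-Hochberg adjustment over all of them and no filter. The model had agent, centred log2 density and their product, with experiment as a block where both experiments were in the fit; residual degrees of freedom were 9 for all arrays, 2 for A, 4 for B and 6 for the difference between experiments. Nothing says that dishes of an experiment came from separate cultures, so the p-values reflect only how these dishes spread. Matched dishes share an experiment and a density. Deviations from the group means correlated by 0.05 on average over 30 pairs of arrays of the same experiment (-0.65 to 0.64). At shared densities a group held 1 dish of each experiment, so deviations in B mirror those in A and the pairs repeat each other. The deviations also carry the difference between experiments, so they cannot show whether matched dishes were alike.

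The members and the lists were chosen with earlier results of these data known. All member probe sets are named, with Ifit1 to place arrays. Other genes are named when called (up to 4 per list and direction) or as the 5 nearest in pattern to Nr1d1, Dbp, Per2 and Arntl. Marker genes that were called are named as well, and so are some uncalled genes of the lists, with their values. Where 1 probe set stands for a gene it is the most variable. On simulated data for 45037 probe sets, the MMP3 fit recovered 57% of changes of 1 and 87% of changes of 2 (log2) with all arrays, 24% and 40% in B, and 34% and 47% in A. These data had independent errors, no difference between experiments and no arrays against their labels. The changes were put into 200 probe sets at or above the 40th percentile of SD. The rates thus do not hold for members with large errors, such as Dbp with an SE of 1.26 over all arrays. Alternatives were other scalings, a filter on SD, robust eBayes, no interaction, other blocks, 1 probe set per gene, and arrays left out.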

Additional observations from a re-analysis of the deposited data

Results flagged for a closer look

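For 9 member probe sets, every MMP3 dish of experiment B lay on one side of its control and every MMP3 dish of experiment A on the other. In 8 of them MMP3 was higher in B and lower in A, against 4.66% of all probe sets and 7.21% of those at or above the 40th percentile of SD. In 1 the signs were reversed, against 3.46% of all. The 3′ minus 5′ difference of beta-actin had the signs of the 8 in every pair, and that of Gapdh did not. Whether they varied with RNA integrity was not tested. The MMP3 effect in B minus that in A, fitted by limma on 12 arrays, was 5.51 ± 2.20 (SE) for Dbp 1418174_at and 5.13 ± 2.16 for Dbp 1438211_s_at. For Per3 it was 3.31 ± 2.02 (1441445_at), 2.58 ± 1.78 (1458176_at) and 2.41 ± 1.04 (1421087_at). For Nr1d1 it was 3.04 ± 2.12, and for Nr1d2 (1416958_at) 0.913 ± 0.341. The probe sets of Arntl differed by 0.483 ± 0.536 (1457740_at) and -0.528 ± 0.449 (1425099_a_at), opposite in sign. Without the 100K MMP3 array of B these differences were 3.86 and 3.62 for Dbp, 1.59, 1.13 and 1.88 for Per3 in the same order, 1.21 for Nr1d1, 0.639 for Nr1d2, and -0.01 and -0.15 for Arntl. With all arrays, all 9 had an adjusted p of 0.690 by limma, so none of these differences passed the test. The signs were in 4 of 4 pairs of B and 3 of 3 of A, and each pair of B holds 1 of the 4 arrays that stand against their labels. What the pairs of B say of MMP3 itself therefore cannot be told. No group had 4 or more samples, so single dishes were not tested as outliers.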

How the results depend on the processing

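In all 8 comparisons 0 of 20 member probe sets were called, and of 136 recomputed counts of members called, 132 stayed at 0. Most of the 136 settings called 0 of all probe sets, so a member count of 0 was fixed there and is no measure of stability. The 4 counts that moved follow. Without the 4 arrays of B that stand against their labels, 6 member probe sets were called for MMP3 over all arrays, where 57.3% of all probe sets were called, and 1 for density (Dbp, 2.24% of all). With only probe sets at or above the 40th percentile of SD, 5 of the 18 members that remained were called for MMP3 in experiment A: both of Dbp, Nr1d2 1416958_at and Cry1 lower and Bhlhe40 higher, where 19.9% of 27022 were called. With 1 probe set per gene, 1 was called there (Bhlhe40, adjusted p of 0.0417 by limma, 6.99% of 18193 genes). Leaving out each array in turn gave 0 to 0 member calls in every comparison, but 76 of these 82 fits called 0 of all 45037 probe sets, so this says nothing about stability. The other 6 were 4 of the 14 MMP3 fits over all arrays, with 377 to 1302 probe sets called, and 2 of the 12 fits of the difference between experiments, with 3 and 84. In A such fits keep 1 residual degree of freedom. The fit without a replicate block called 0 members and 0% of all probe sets for MMP3, and the fit with each matched pair of dishes as a replicate block called 0 members and 5 of all probe sets. Of 620 recomputed effects of single genes, 62 moved by more than their standard error; in A these include Nr1d1 without control 250K (0.03) and Per3 without it (-0.47). Fits to B without the 4 arrays were not made: with the interaction in the model no residual degrees of freedom remained, and the model without it was not run on those arrays.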
